A study of Mus musculus with 4 samples.

Results

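The calcineurin and NFAT genes are 10 mouse genes of 1 signalling route, out of 19505 named on a whole-genome array, and 31 of its 41174 probes measured them. The genes are Ppp3ca, Ppp3cb and Ppp3cc (the catalytic subunits of calcineurin), Ppp3r1 (its regulatory subunit), Nfatc1, Nfatc2, Nfatc3 and Nfatc4 (the calcium-regulated NFAT factors), Nfat5 (the osmotic NFAT factor) and Rcan1 (an inhibitor of calcineurin). The members were chosen by gene symbol, with no threshold on a measured value. The list was drawn up with these arrays' ratios already known, so the members' ratios and calls below are a description and not independent evidence about the group.

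The cells were B16-F10, a mouse melanoma line grown in vitro, treated for 2 h with 15 ug/ml of 1 of 2 goat antibodies. One was a polyclonal antibody against mouse TIM3, the checkpoint receptor encoded by Havcr2, which the labels of replicates 1, 2 and 4 call an agonist, and the control was unspecific goat IgG. On each of 4 Agilent 2-colour arrays the anti-TIM3 sample was labelled with Cy5 and the IgG sample of the same passage with Cy3. Replicates 1 to 4 came from passages 14, 16, 18 and 19 of the line. For replicate 3 the labels name the anti-TIM3 antibody of the Cy5 sample without repeating its dose and time. The dyes were never exchanged, so an effect of the antibody and an effect of the dye cannot be told apart in any value below. Nothing was measured in a host or in other cell types, and the replicates are passages of a single line.

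Calcineurin is a phosphatase that is switched on when calcium rises in the cell and calmodulin binds it. It removes phosphates from the NFATc proteins, which then enter the nucleus, pair with other factors and drive transcription; kinases put the phosphates back and the proteins are exported. The route is best known from T cells, where cyclosporin and tacrolimus block it. Nfat5 lacks the calcineurin-binding part of the other NFAT proteins and answers to osmotic stress. Rcan1 binds and restrains calcineurin, and 1 of its transcripts is itself switched on by NFAT. Activation of calcineurin is a change of protein state, which a transcript array does not read.

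All 7 markers of melanocytes and melanoma (Mlana, Pmel, Tyr, Tyrp1, Dct, Mitf and Sox10) were detected, that is, flagged as well above background, by both dyes on every array, at percentiles 76.7 to 100 of intensity among all probes. Of 7 T cell markers, 3 reached this (Cd3e, Cd4 and Lck, at percentiles 55.8, 49.9 and 61.7), and Cd3g was above background in neither channel on any array. The other lists gave 2 of 6 for macrophages (Cd68 and Lyz2), 1 of 4 for fibroblasts (Col1a1) and 0 of 3 for endothelial cells. The number of probes detected per array ran from 21151 to 22086 in Cy3 and from 25703 to 28400 in Cy5. Correlations of the ratios between arrays lay between 0.524 and 0.746 over 26545 tested probes (Pearson's r across probes, which are not independent replicates), and between 0.548 and 0.855 over the 26 tested members.

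Probes of 1 gene gave different values, and 7 of them are shown by their sequence. They were picked by hand, with their values known, from the probes whose sense strand holds at least 1 reading frame with no stop codon and which are not the 3′-most of their gene. Others that meet this, such as Ppp3cb probe 4, and the called probes at the 3′ ends are not printed. They are written 5′ to 3′ with no part set in capitals, and positions are those of the files (mm7). The files do not say whether a probe lies in an exon, an intron or an untranslated region. A mapped span much longer than the 60 bases of the probe (452 bases or more here) means that the match is split in the genome. Ppp3ca probe 1 spans 61 bases and is not counted as split.

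Ppp3r1 probe 3 (chr11:17145007-17145066, plus strand): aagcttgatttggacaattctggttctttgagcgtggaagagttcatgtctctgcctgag
Ppp3r1 probe 2 (chr11:17146243-17146694, plus strand): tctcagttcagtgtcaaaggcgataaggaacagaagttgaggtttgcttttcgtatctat
Ppp3cb probe 3 (chr14:18172057-18172116, minus strand): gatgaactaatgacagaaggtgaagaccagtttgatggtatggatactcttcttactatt
Ppp3cc probe 2 (chr14:64869504-64879654, minus strand): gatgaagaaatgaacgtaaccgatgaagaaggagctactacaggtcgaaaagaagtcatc
Nfatc3 probe 2 (chr8:104690920-104690979, plus strand): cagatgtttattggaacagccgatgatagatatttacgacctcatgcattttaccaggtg
Nfat5 probe 3 (chr8:105969638-105970563, plus strand): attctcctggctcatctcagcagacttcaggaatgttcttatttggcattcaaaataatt
Rcan1 probe 2 (chr16:92448616-92449912, minus strand): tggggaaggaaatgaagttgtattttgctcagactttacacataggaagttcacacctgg

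Of the 31 probes, 26 were tested, meaning that at least 3 of the 4 arrays detected them by one dye or the other. The ratio is log2 of anti-TIM3 over IgG after normexp background correction and loess, so a value above 0 is a higher signal after anti-TIM3. Of the 26, 5 were higher and 4 lower at an adjusted p under 0.05 (limma, two-sided, Benjamini-Hochberg over all 26545 tested probes), and 17 did not pass. Over all tested probes 14.2% were called higher, 13.6% lower and 27.8% in either direction. The median ratio was 0.01 over the members and 0.01 over all tested probes. The members' ratios ran from -0.38 to 0.26, and 1.07% of all tested probes had a larger absolute ratio than the largest of the members.

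The ratio had the same sign on all 4 arrays for 14 of the 26 probes, against 47.7% of all tested probes. For 4 of the 26 the normalised signals of the IgG and the anti-TIM3 channel did not overlap across arrays, against 12.7% of all tested probes. The SD over the 4 arrays ran from 0.01 to 0.17 with a median of 0.09, and the median over all tested probes was 0.07. All 10 genes had 2 or more tested probes, 5 genes had at least 1 probe called, and 1 gene, Ppp3cb, had calls in both directions. Each gene is therefore described probe by probe. The counts of genes with calls have no share over all genes beside them, while 27.8% of all tested probes were called. They are not read as a result about the group. Intensities serve to name the brightest probe of a gene, to mark dim probes and to match probes of like intensity. Amounts of transcript are not compared between member probes.

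**Figure D1:**
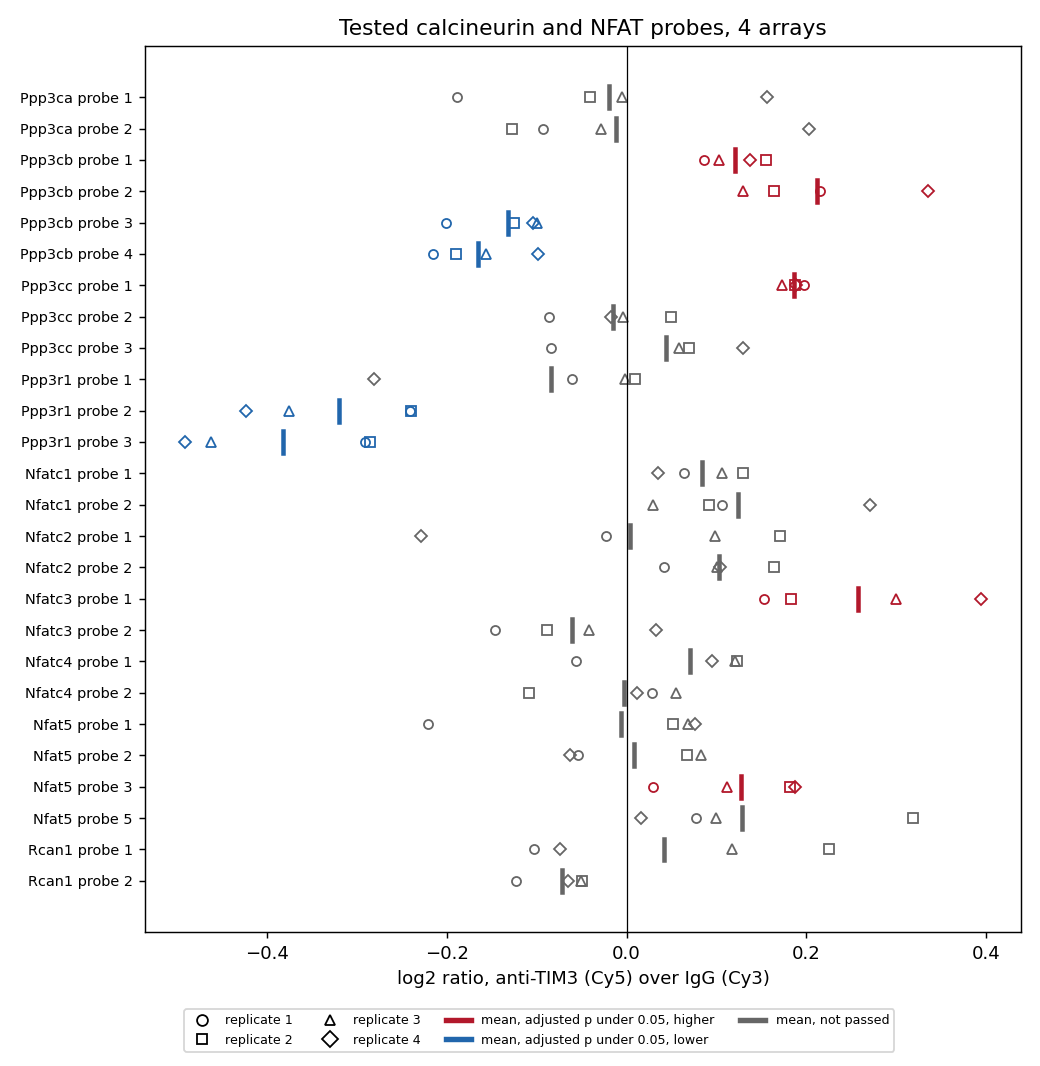
Log2 ratios of anti-TIM3 (Cy5) over IgG (Cy3) for the 26 tested probes, with 1 symbol per array (replicates 1 to 4) and a bar at the mean; red and blue mark probes higher or lower at an adjusted p under 0.05. Ppp3r1 probes 3 and 2 lie lowest, at -0.38 and -0.32, Nfatc3 probe 1 lies highest, at 0.26, and the 4 probes of Ppp3cb fall on both sides of 0.

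Ppp3r1, the regulatory subunit, which itself binds calcium, gave the lowest ratios of the group. Its 2 probes nearer the 5′ end fell, and its 3′-most probe did not pass. Probe 3 read 8.81, 8.71, 8.94 and 9.07 (normalised log2 signal, replicates 1 to 4) in the IgG channel and 8.52, 8.43, 8.48 and 8.58 in the anti-TIM3 channel. Every anti-TIM3 value of this probe lay below every IgG value. Its ratios were -0.29, -0.29, -0.46 and -0.49, with a mean of -0.38 ± 0.11 (SD, n = 4 arrays; 95% interval -0.48 to -0.28; limma, adjusted p = 0.0011), which is 0.767-fold.

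Ppp3r1 probe 2, whose match is split over 452 bases, read 9.06, 9.08, 9.29 and 9.37 with IgG and 8.82, 8.84, 8.92 and 8.95 with anti-TIM3, again with no overlap. Its mean ratio was -0.32 ± 0.09 (SD, n = 4 arrays; limma, adjusted p = 0.00159). In both probes the ratio lay lower in replicates 3 and 4 than in replicates 1 and 2, and within each array the 2 ratios differed by 0.06 ± 0.02 (SD over 4 arrays). Among probes within 0.25 of their mean log2 intensity, probe 3 stood at percentile 0.46 and probe 2 at percentile 1.56 of the ratio. Ppp3r1 probe 1 (chr11:17152327-17152386), the 3′-most, had ratios of -0.06, 0.01, -0.00 and -0.28, and its mean of -0.08 ± 0.14 (SD, n = 4 arrays) did not pass (limma, adjusted p = 0.239; 95% interval -0.20 to 0.03). It lay above probe 3 on all 4 arrays, by 0.30 ± 0.11, so the size of the fall was not shared by the 3 probes.

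Ppp3cb, the beta catalytic subunit, had 4 probes on chromosome 14 and all of them passed, 2 in each direction. Ordered from the 5′ to the 3′ end of the gene, their mean ratios were -0.13 (probe 3), 0.12 (probe 1), -0.17 (probe 4) and 0.21 (probe 2), so the sign alternated along the gene. Probe 2 (chr14:18156600-18156659) read 10.88, 10.88, 10.79 and 10.83 with IgG and 11.09, 11.04, 10.92 and 11.16 with anti-TIM3, with no overlap. Its ratio was 0.21 ± 0.09 (SD, n = 4 arrays; limma, adjusted p = 0.00725). From the deposited processed signals its ratio was 0.19 and it did not pass (limma, adjusted p = 0.0663).

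Probe 4 of Ppp3cb (chr14:18158144-18158203) lies 1544 bases from probe 2 and read 9.27, 9.28, 9.07 and 9.002 with IgG and 9.06, 9.09, 8.91 and 8.90 with anti-TIM3. The signal was lower with anti-TIM3 on each array, while the ranges of the 2 channels overlapped. Its ratio was -0.17 ± 0.05 (SD, n = 4 arrays; limma, adjusted p = 0.0105). Probe 2 exceeded probe 4 on all 4 arrays, by 0.38 ± 0.07 on the log2 scale. Probe 3 had a ratio of -0.13 ± 0.05 (limma, adjusted p = 0.0235), and probe 1 (chr14:18164471-18164530), matched to a cDNA clone, had 0.12 ± 0.03 (limma, adjusted p = 0.0283). The call of probe 3 was lost without any 1 of the 4 replicates, at ratios from -0.14 to -0.11, and that of probe 1 without replicate 2, 3 or 4, at ratios of 0.11, 0.13 and 0.11. The 4 probes thus give no single direction for the gene.

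Ppp3ca, the alpha catalytic subunit, had no probe that passed. Probe 1 (chr3:136729760-136729820) had a normalised log2 signal of 12.88, 12.66, 12.31 and 12.38 with IgG and of 12.69, 12.62, 12.30 and 12.54 with anti-TIM3, and the channels overlapped. The ratio was -0.19 in replicate 1 and 0.16 in replicate 4, and its mean was -0.02 ± 0.14 (SD, n = 4 arrays; limma, adjusted p = 0.801; 95% interval -0.14 to 0.10). Probe 2, matched to a cDNA clone far upstream, was above background in Cy5 on 3 arrays and in Cy3 on 0, with a ratio of -0.01 ± 0.15 (limma, adjusted p = 0.892).

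Ppp3cc, the gamma catalytic subunit, rose at 1 of its 3 probes. Probe 1 (chr14:64862426-64862485), the 3′-most, read 10.29, 10.12, 9.88 and 10.15 with IgG and 10.48, 10.30, 10.05 and 10.34 with anti-TIM3. Its ratio was 0.20, 0.19, 0.17 and 0.19, with an SD of 0.01, the smallest of the 26 member probes, and a mean of 0.19 (n = 4 arrays; limma, adjusted p = 0.00458). The ranges of the channels overlap and replicate 3 was the dimmest in both, while the step between channels was nearly equal on each array. Probe 2, whose match is split over 10151 bases, had a ratio of -0.01 ± 0.06 (limma, adjusted p = 0.788), and probe 3 had 0.04 ± 0.09 (limma, adjusted p = 0.453). Probe 1 lay above probe 2 on all 4 arrays, by 0.20 ± 0.06.

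**Figure D2:**
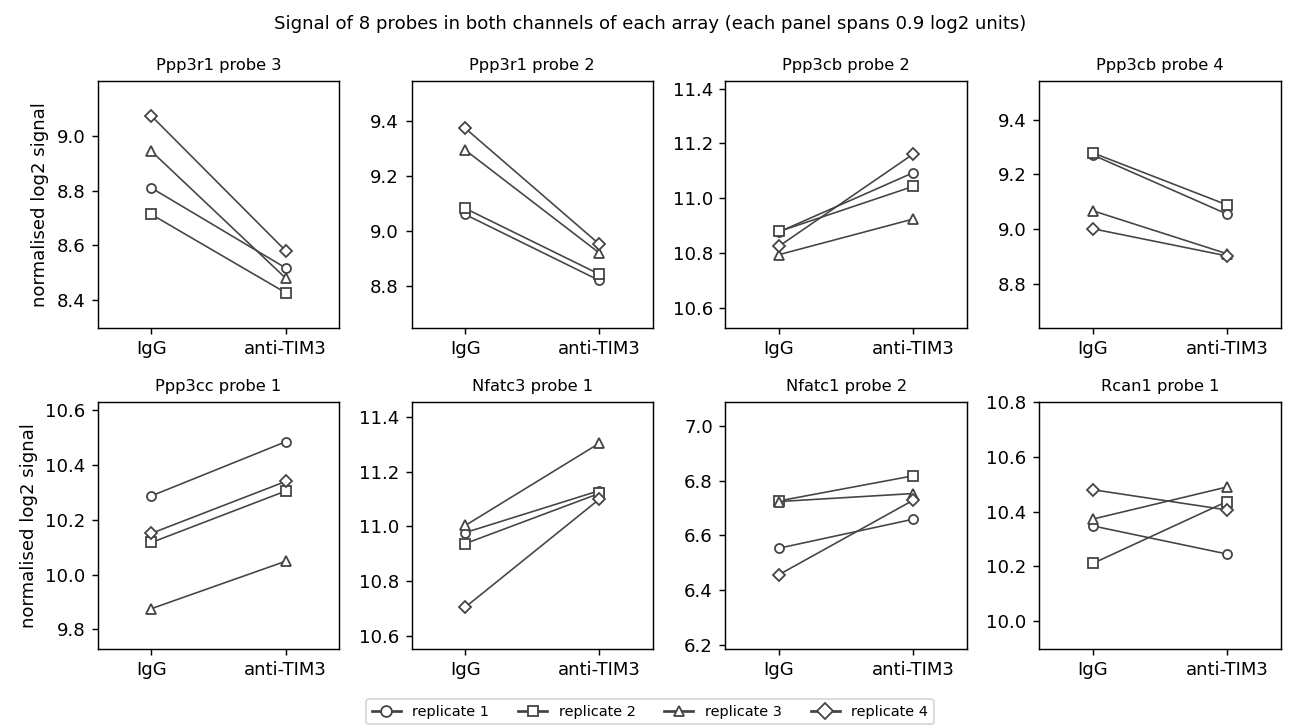
Normalised log2 signal of 8 probes in the IgG (Cy3) and anti-TIM3 (Cy5) channel, with 1 line per array and a vertical span of 0.9 in each panel. The lines of both Ppp3r1 probes fall and those of Ppp3cb probe 2, Ppp3cc probe 1 and Nfatc3 probe 1 rise on all 4 arrays, while those of Rcan1 probe 1 cross.

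Among the calcium-regulated NFAT factors, Nfatc3 was the gene with a probe that passed. Nfatc3 probe 1 (chr8:104727121-104727180), its 3′-most, gave the highest ratio of the group. It read 10.98, 10.94, 11.003 and 10.71 with IgG and 11.13, 11.12, 11.30 and 11.10 with anti-TIM3, with no overlap. The ratios were 0.15, 0.18, 0.30 and 0.39, with a mean of 0.26 ± 0.11 (SD, n = 4 arrays; 95% interval 0.15 to 0.36; limma, adjusted p = 0.00485), which is 1.20-fold and percentile 97.1 among probes of like intensity. Nfatc3 probe 2, which is 36201 bases upstream of it, had -0.15, -0.09, -0.04 and 0.03 and a mean of -0.06 ± 0.08 (limma, adjusted p = 0.263). Probe 1 exceeded probe 2 on all 4 arrays by 0.32 ± 0.04, and both ratios were lowest in replicate 1 and highest in replicate 4. Probe 2 was dim, at a mean log2 intensity of 7.16 against 11.03 for probe 1. With a normexp offset of 10 the ratio of probe 2 was -0.08 (limma, adjusted p = 0.261). Nfatc3 probe 3 was above background in neither channel on any array.

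Nfatc1, the factor that amplifies its own transcription in lymphocytes, was near the limit of detection. Both probes on chromosome 18 were detected in Cy5 on 4 arrays and not well above background in Cy3 on any. Probe 1 read 6.68, 6.72, 6.63 and 6.69 with IgG and 6.75, 6.85, 6.74 and 6.72 with anti-TIM3, and probe 2 read 6.55, 6.73, 6.72 and 6.46 against 6.66, 6.82, 6.75 and 6.73. Their ratios of 0.08 ± 0.04 (limma, adjusted p = 0.0987) and 0.12 ± 0.10 (limma, adjusted p = 0.0624) did not pass. Since the IgG signal was not well above background, a stand-in was used for it. This was the dimmest detected signal of its array, or its own value where that was higher. The mean anti-TIM3 signal was 1.01-fold this stand-in for either probe. Both probes passed the filter through Cy5 alone. The figure has no measure of spread and is open to dye bias, so it is not a lower bound on a rise.

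The deposited processed signals, in which 1 Cy3 spot of probe 1 and 2 of probe 2 hold surrogate values and both background and normalisation differ, gave Nfatc1 ratios of 0.76 (probe 1; limma, adjusted p = 0.0552) and 0.99 (probe 2; limma, adjusted p = 0.0175), so probe 2 was called there. Lowering the normexp offset to 10 alone gave 0.15 and 0.23, and median centring gave -0.03 and 0.02. Other probes shared the detection gap: 7 of the 26 tested member probes were above background on more arrays in Cy5 than in Cy3 and 0 on more in Cy3, and over all tested probes the shares were 22.4% and 0%.

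Nfatc2 had 4 probes, of which 2 were tested. Probe 1 (chr2:168272495-168272554) was detected by both dyes throughout and had ratios of -0.02, 0.17, 0.10 and -0.23, with a mean of 0.00 ± 0.17 (SD, n = 4 arrays; limma, adjusted p = 0.964). Probe 2 shares a run of 19 bases with probe 1, and its mapped span is only 19 bases for a probe of 60. It had a ratio of 0.10 ± 0.05 (limma, adjusted p = 0.0579) and was above background in Cy3 on 0 arrays and in Cy5 on 3. The ratio was 0.20 with a normexp offset of 10 (limma, adjusted p = 0.0349). From the deposited processed signals, which differ in background, normalisation and the use of a surrogate value for 1 Cy3 spot of this probe, it was -0.45 (limma, adjusted p = 0.0534). Probes 3 and 4 were not tested; probe 3 was above background in Cy5 on 1 array and probe 4 on 0.

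Nfatc4 did not pass at either probe. Probe 1 (chr14:50701058-50701117) read 8.06, 8.13, 8.15 and 8.48 with IgG and 8.002, 8.25, 8.27 and 8.57 with anti-TIM3, and its ratio was 0.07 ± 0.09 (SD, n = 4 arrays; limma, adjusted p = 0.217). It was higher with anti-TIM3 on 3 of 4 arrays, replicate 1 being the exception. Probe 2 had a ratio of -0.00 ± 0.07 (limma, adjusted p = 0.957).

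Nfat5, the factor that drives the genes of the osmotic stress response, was covered by 6 probes on chromosome 8, of which 4 were tested and 1 passed. Probe 3, whose match is split over 926 bases, read 7.11, 6.94, 6.94 and 6.89 with IgG and 7.14, 7.12, 7.05 and 7.08 with anti-TIM3. The ratio was 0.03, 0.18, 0.11 and 0.19, with a mean of 0.13 ± 0.07 (SD, n = 4 arrays; limma, adjusted p = 0.0384), and the probe was above background in Cy3 on 2 arrays. The call was lost from the deposited processed signals (ratio 0.13; limma, adjusted p = 0.349), after trends on intensity and base composition were removed (0.08; limma, adjusted p = 0.132), and without replicate 2, 3 or 4 (0.11, 0.13 and 0.11).

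The brightest Nfat5 probe, probe 1 (chr8:105979337-105979396), read 9.91, 9.59, 9.49 and 9.42 with IgG and 9.69, 9.64, 9.56 and 9.49 with anti-TIM3. Its ratio was -0.22 in replicate 1 and 0.05, 0.07 and 0.08 in the others, with a mean of -0.01 ± 0.14 (limma, adjusted p = 0.942). Probe 2 had 0.01 ± 0.08 (limma, adjusted p = 0.895) and probe 5, above background in Cy3 on 0 arrays, had 0.13 ± 0.13 (limma, adjusted p = 0.0838). Probes 4 and 6 were not tested.

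Rcan1, listed in the files under its older name Dscr1, did not pass at either probe. RefSeq (GRCm38.p6) gives 2 start sites for it with a promoter entry. The start nearer the 3′ end is preceded by 250 bases that hold 3 copies of GGAAA, the core of the NFAT binding motif, counted on both strands and shown in capitals (TTTCC is the same motif on the other strand). This stretch is shown because the transcript from such an inner start is the one known to answer to calcineurin.

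Rcan1 promoter (chr16:92400079-92400328, minus strand, GRCm38.p6): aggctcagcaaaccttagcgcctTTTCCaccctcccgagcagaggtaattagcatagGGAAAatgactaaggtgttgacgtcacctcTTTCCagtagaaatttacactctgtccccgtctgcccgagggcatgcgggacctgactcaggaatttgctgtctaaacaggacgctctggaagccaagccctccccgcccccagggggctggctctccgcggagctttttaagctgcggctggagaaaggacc

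Of 32851 promoter windows of this length, 55.6% hold at least 1 GGAAA and 6.39% hold 3 or more. Windows before Ppp3cb, Nfatc4 and 1 start of Nfatc2 hold 3 copies as well, so the count is not particular to Rcan1. The 250 bases before the other Rcan1 start hold 0. A match of 5 letters is a description of the sequence and not a site. The files do not say which start the 2 Rcan1 probes report on, and their mm7 positions are not on the build of this promoter.

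Rcan1 probe 1 (chr16:92445136-92445195), the 3′-most, read 10.35, 10.21, 10.37 and 10.48 with IgG and 10.25, 10.44, 10.49 and 10.41 with anti-TIM3. The signal was lower with anti-TIM3 in replicates 1 and 4 and higher in replicates 2 and 3, at ratios of -0.10, 0.23, 0.12 and -0.07. The mean was 0.04 ± 0.16 (SD, n = 4 arrays; 95% interval -0.08 to 0.17; limma, adjusted p = 0.597). Rcan1 probe 2, whose match is split over 1297 bases, had -0.12, -0.05, -0.05 and -0.06, lower on all 4 arrays, with a mean of -0.07 ± 0.03 (95% interval -0.15 to 0.00; limma, adjusted p = 0.138). Its signal in replicate 4 was 8.39 with IgG and 8.33 with anti-TIM3, while in replicates 1 to 3 it lay between 7.38 and 7.55.

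Of the 26 tested probes, 5 were not well above background in Cy3 on any array and passed the filter through Cy5, so the genes are set in order only by probes that both dyes detected on every array. By the highest such probe, the mean log2 ratios were 0.26 (Nfatc3), 0.21 (Ppp3cb), 0.19 (Ppp3cc), 0.07 (Nfatc4), 0.04 (Rcan1), 0.0081 (Nfat5 probe 2), 0.0044 (Nfatc2), -0.02 (Ppp3ca) and -0.08 (Ppp3r1), and Nfatc1 had no such probe. Taking the highest probe leans each gene upward, and the order describes these probes, not the genes. Nfatc2 probe 1 and Nfat5 probe 2 had mean log2 intensities of 7.26 and 7.14. The T cell markers Cd4, Cd3e and Lck, detected in the same way, were at 7.10, 7.51 and 8.16. At that level detection does not by itself show that a gene is expressed. Probes 3 and 4 of Ppp3cb, also detected by both dyes throughout, were called lower, at -0.13 and -0.17, and its probe 1 higher, at 0.12. Ppp3r1 probes 2 and 3, likewise detected, were called lower, at -0.32 and -0.38. Neighbours in this order differ by less than the SD of either probe, except that Ppp3cc probe 1 (SD 0.01) lies further than its own SD below Ppp3cb probe 2 and further than both SDs above Nfatc4 probe 1. Among probes of like intensity, 2 of the 26 members were under percentile 5 (both of Ppp3r1) and 1 was over percentile 95 (Nfatc3 probe 1).

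**Figure D3:**
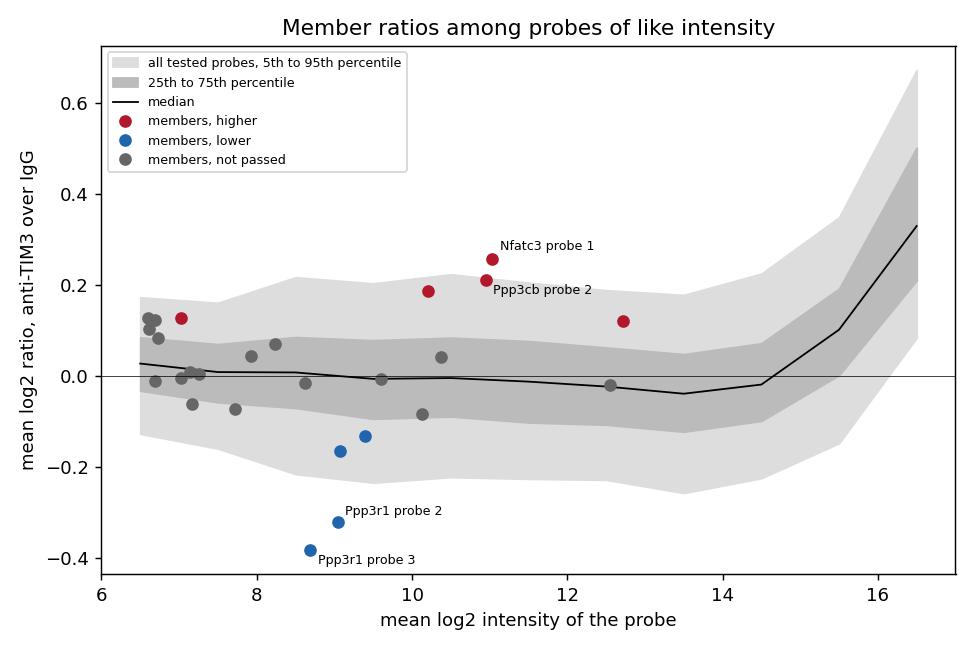
Mean log2 ratio of the 26 tested probes against mean log2 intensity, over bands that hold the middle 50% and 90% of all tested probes. Ppp3r1 probes 3 and 2 lie below the wider band and Nfatc3 probe 1 above it, and no member lies above 15, where the ratios of all probes rise.

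Place along the gene was looked at after the values had been seen. In 8 of the 10 genes the 3′-most tested probe had the highest ratio; Ppp3ca and Nfat5 were the exceptions. In Nfatc1, Nfatc2 and Ppp3ca the outcome turns on a probe that was not well above background in Cy3 on any array. The place of Nfatc2 probe 2, taken as the 3′-most, rests on a mapped span of 19 bases. Among probes detected by both dyes on every array, a restriction added after the values were seen, it held in 5 of 6 member genes and in 54.3% of 4769 genes (6 of 6 and 56.7% from the deposited processed signals). Over all 5850 genes with several tested probes at distinct places the share was 52.1%, and over the 4002 genes with exactly 2 tested probes it was 57.8%. The ratio of the 3′-most probe less the mean of the others had a median of 0.11 over the member genes and 0.03 over all genes. The 3′-most probe was also the brightest of its gene in 7 of the 10 genes and in 66.4% of all genes, and the part of labelling or probe brightness in the pattern was not tested. From the deposited processed signals the count was 7 of 10 and the share 53.4%.

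**Figure D4:**
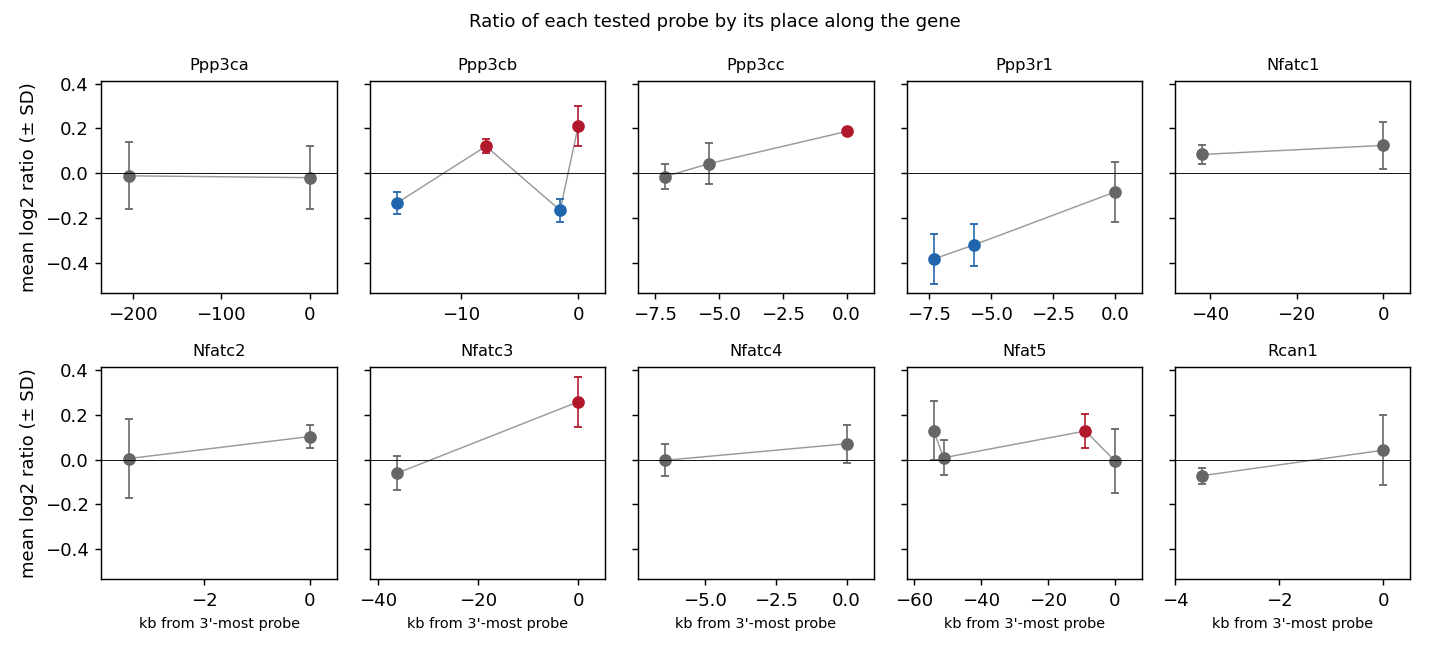
Mean log2 ratio with its SD over 4 arrays for each tested probe, against its distance in kb from the 3′-most probe of the gene (0, at the right); colours are as in the plot of ratios by array. In 8 of the 10 genes the right-most point is the highest, Ppp3cb alternates in sign, and Ppp3r1 stays below 0 throughout.

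Under other processing the 9 called probes kept their sign in the deposited processed signals, and 7 of the 17 that had not passed changed sign there. The deposited signals come from the same spots, and a call picks ratios away from 0. This difference was therefore in part fixed by the calling and is no independent support for the calls. In those signals 4 member probes were higher and 4 lower, and 19.7% of all tested probes were called in either direction. The higher calls were not the same set: Ppp3cb probe 2 and Nfat5 probe 3 were lost. Nfatc1 probe 2, not well above background in Cy3 on any array, was gained. When each array was only centred on its median, without loess, 0 of the 26 members and 0 of all probes passed (limma; no adjustment also left 0 members under 0.05). The median ratio of the tested probes was then 0.15 in place of 0.01. Both called Ppp3r1 probes were then the lowest of the 9, at -0.23 and -0.14, while Ppp3cb probes 3 and 4 turned to 0.070 and 0.012.

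**Figure D5:**
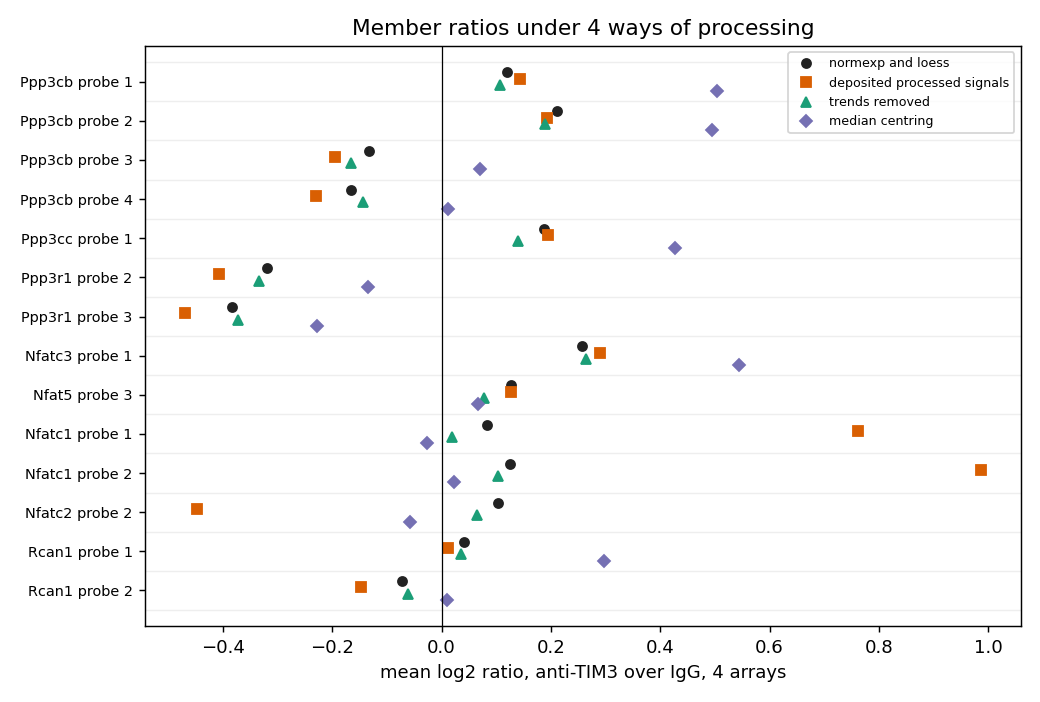
Mean log2 ratio over 4 arrays of the 9 called probes and of 5 others of Nfatc1, Nfatc2 and Rcan1 under 4 ways of processing the same spots. Ppp3r1 probes 2 and 3 stay below 0 under all 4, median centring moves bright probes such as Ppp3cb probe 1 to the right (0.12 to 0.50), and the dim Nfatc1 probes reach 0.76 and 0.99 in the deposited processed signals.

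The other genes of the route were taken from lists that, like the members, were set with earlier results of these arrays known. Each gene is represented by its brightest tested probe, and on that basis 14.6% of 14470 genes were higher and 13.4% lower, with a median ratio of 0.01. Values below are mean log2 ratios over 4 arrays with adjusted p from the same limma fit. With median centring, where 0 probes of the array passed, the list medians ran from 0.02 to 0.37 against 0.21 over all genes. From the deposited processed signals the counts higher and lower were 3 and 2 for regulators, 1 and 1 for calcium entry, 6 and 0 for kinases and transport, 1 and 1 for NFAT targets and 3 and 1 for osmotic targets.

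Among regulators and partners of calcineurin, 16 of 17 genes were tested, 4 were higher and 3 lower, and the median was 0.01. Calm2, which encodes calmodulin, the calcium sensor that switches calcineurin on, rose by 0.52 ± 0.12 (adjusted p = 0.000425), and its other probe rose too, by 0.26. Its mean log2 intensity was 16.1, in the range above 15 where the ratios of all probes rise, and its ratio was 0.20 from the deposited processed signals and 1.19 with median centring. Chp1, a calcineurin-like calcium-binding protein, was at 0.19, while its 2 other tested probes were at -0.078 and -0.070. Akap5, which anchors calcineurin at membranes, was at 0.15 and Myoz1, a calcineurin-binding muscle protein, at 0.12. Both were read by dim probes, and in the deposited processed signals Akap5 was at 0.81 and Myoz1 did not pass (adjusted p = 0.29). Ppia, the cyclophilin through which cyclosporin blocks calcineurin, fell by 0.23, and Crtc2, a coactivator that calcineurin dephosphorylates, fell by 0.15. Bad, a cell-death protein that calcineurin dephosphorylates, was the third gene that passed lower, at -0.21, and lay below 0 on 3 of 4 arrays; its call was lost with the deposited processed signals (adjusted p = 0.286).

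Among 16 tested genes of 18 for calcium entry and release, 2 were higher and 2 lower, with a median of 0.02. Itpr1, a calcium release channel of the endoplasmic reticulum, rose by 0.22 ± 0.10 (adjusted p = 0.00738), and Stim1, the sensor that opens store-operated channels, by 0.15. Stim2, its relative, fell by 0.16, and Atp2a3, a pump that refills the store, fell by 0.19 ± 0.01 (adjusted p = 0.00411). The calls of Stim1 and Stim2 were lost with the deposited processed signals (adjusted p = 0.0626 and 0.278). The 3 Orai channel genes did not pass, with ratios from -0.06 to 0.03.

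Among kinases that rephosphorylate NFAT and factors of its transport, 16 of 17 genes were tested, 6 were higher and 0 lower (7 and 0 at an unadjusted p under 0.05 in limma), and the median was 0.08. Csnk1d and Csnk1e, casein kinases, rose by 0.46 ± 0.06 (adjusted p = 0.000265) and 0.31 ± 0.15 (adjusted p = 0.00436), Gsk3b, a kinase that drives NFAT export, by 0.21, and Csnk1a1 by 0.20. Other probes of these genes mostly did not follow: the 3 further tested probes of Csnk1d lay between -0.25 and -0.03 with 1 called lower, that of Csnk1e was at -0.08, that of Gsk3b at -0.12, and the 4 of Csnk1a1 between -0.05 and 0.06. Dyrk1b and Kpnb1 also passed. Another Kpnb1 probe was also higher, at 0.27, and another Dyrk1b probe was lower, at -0.14. The 6 genes higher in the deposited processed signals were not the same set. The call of Dyrk1b was lost there (limma, adjusted p = 0.0536) and Xpo1 was gained, at 0.17 (limma, adjusted p = 0.0318). In the main fit Xpo1 was at 0.10 (limma, adjusted p = 0.0535).

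Of 24 genes known as NFAT targets, mostly from lymphocytes, 12 were tested; 3 were higher and 1 lower, and the median was 0.03 (-0.05 from the deposited processed signals). Nr4a1, an early-response receptor gene, was at 0.17 ± 0.08 (adjusted p = 0.0135), Egr2, an early-response factor, at 0.14 ± 0.02 (adjusted p = 0.0128), and Ccna2, cyclin A2, at 0.14. These 3 calls were lost in the deposited processed signals, where Nr4a1 was at 0.07 (adjusted p = 0.399), Egr2 at 0.16 (adjusted p = 0.0639) and Ccna2 at 0.13 (adjusted p = 0.111), and Tnf passed there at 0.15 (adjusted p = 0.0417). Cdk4, a cell cycle kinase that NFAT is known to repress, fell by 0.42 ± 0.21 (adjusted p = 0.00362). Havcr2, the gene of the receptor itself and a member of this list, did not pass (0.04, adjusted p = 0.40). Tested cytokine genes Il2, Il4, Il13 and Tnf were dim and did not pass, with ratios from -0.02 to 0.06.

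Of 14 osmotic targets of Nfat5, 13 were tested, 4 were higher and 2 lower, and the median was 0.07. Slc6a6, the taurine transporter, rose by 0.29 ± 0.17 (adjusted p = 0.008) at its brightest probe while its other probe fell, at -0.11. Aqp1, a water channel, was at 0.20, Slc6a12, the betaine transporter, read by a dim probe, at 0.17, and Hspa4l, an osmotic stress chaperone, at 0.14. Pnpla6, the enzyme that makes the osmolyte glycerophosphocholine, fell by 0.27 ± 0.16 (adjusted p = 0.00999), and Slc38a2, an amino acid transporter, by 0.12. In the deposited processed signals Slc6a6 and Slc38a2 did not pass (adjusted p = 0.0617 and 0.0568), and Slc6a12 was at 0.58. Akr1b3, aldose reductase, and Slc5a3, the inositol transporter, were at 0.06 and 0.08 and did not pass.

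The genes whose 4 ratios lay closest to those of Nfatc3 probe 1, among 2424 candidate probes within 0.5 of its mean log2 intensity, were Slc35f1, Cdkn1b and Fam174a, at Euclidean distances of 0.06, 0.07 and 0.09. For Ppp3r1 probe 3, among 2763 candidates, they were Gne, Eri3 and Sec61a1, at 0.21, 0.22 and 0.23. The distance is over the 4 arrays, whose channels all these genes share.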

How the data were processed

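Per the labels, 4 Agilent 2-colour arrays compared anti-TIM3 (Cy5) with IgG (Cy3) in B16-F10 cells. The deposited scanner files hold spot intensity per channel, with Feature Extraction 9.5.1.1 named in their headers and version 9 in the submitters' processing notes, on 1 slide in 1 scan. Log10 ratios in the deposited value table are identical to the scanner files' own ratios at every probe, which fixes their scale and direction (Cy5 over Cy3).

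Mean signals were background-corrected (normexp, offset 50), normalised by loess within each array with control spots at weight 0, and averaged per probe without outlier spots. Deposited intensity was thus turned into log2 ratios, whose means were tested (limma 3.58.1, R 4.3.3). Separate channel levels are loess and Aquantile values. Probes were named through RefSeq (GRCm38.p6): 22951 by accession, 6659 by symbol, 3109 by synonym, and 8455 kept the file's name. Coordinates are mm7 per the file headers.

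The members and gene lists were chosen with earlier results of these data known. Every member is reported with its probes; from each list, up to 4 genes per direction with the largest ratio among those called with 1 sign on all 4 arrays are named. Bad, Dyrk1b, Kpnb1, Xpo1, Havcr2, Akr1b3, Slc5a3, the Orai genes and the cytokine genes are named outside that rule, after their values were seen. For the highest and the lowest member probe detected by both dyes on every array, the 3 nearest genes by the 4 ratios are named.

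Precision is limited by the number of arrays, and the p-values cover only variation among passages of 1 line. The fit was tested on simulated data with the spread of the 26545 tested probes, in which few probes changed. Of 67 changes of 0.25 in log2 ratio 50.75% were recovered, and of 67 changes of 0.5 95.5% were, with 5 false calls. A member that did not pass is therefore not shown to be unchanged. Other settings changed the background correction, the normalisation, the filter on dim probes, the handling of outlier spots, the variance prior, the weights, the pairing of channels and the trends, or left out each replicate in turn.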

Additional observations from a re-analysis of the deposited data

Results flagged for a closer look

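For 2 of the 26 tested member probes a single array stood far from the others, as Dixon's test at 95% measures it for 4 values; chance flags about 1 group in 20. Nfatc4 probe 1 had a log2 ratio of -0.056 in replicate 1 against 0.10 to 0.12 in the other 3 arrays. Nfat5 probe 1 had -0.22 in replicate 1 against 0.05 to 0.08 in the others. Both lone values are from replicate 1 and lie below 0, and neither probe passed the test.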

How the results depend on the processing

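The counts of member probes (5 higher, 4 lower) and of all probes (3776 and 3600) changed by over 1.5 times, in part or in full, under 4 kinds of setting. With median centring in place of loess they were 0 and 0 for the members and 0 and 0 for all probes (at an unadjusted p under 0.05, 968 higher and 38 lower over all probes, 0 and 0 among the members), and Ppp3cb probes 3 and 4 reversed, to 0.070 and 0.012. With the channels of an array fitted as separate samples and no replicate block they were 0 and 1 for the members and 325 and 251 for all probes; with the replicate block, which is the pairing of channels by array and passage, they were those reported. From the deposited processed signals 2378 probes were lower. Leaving out 1 replicate gave 3 to 5 member probes higher and 3 lower, and 2142 to 3515 probes higher and 2080 to 2736 lower over all. Ppp3cb probe 2, Ppp3cb probe 4, Ppp3cc probe 1, both called Ppp3r1 probes and Nfatc3 probe 1 passed without any 1 replicate. The cause of these changes was not tested. Signal over background limits the 5 tested member probes that were not well above background in Cy3 on any array.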
